A study of Mus musculus with 5 samples.

Results

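Red pulp macrophages of the spleen engulf aged red blood cells and return their iron to the circulation. A set of 10 genes tied to this work is described here in sorted splenic germinal centre B cells. Their values came from the 16 probe sets of the array annotated with 1 of these gene symbols, out of 45101 probe sets in all, secondary and dim probe sets included. They are 10 of the 18193 genes with a probe set of 1 symbol. The genes were selected on the REL-against-WT signals of these same arrays, so their differences between the groups are given as a description, with no test. For the 2 REL arrays, eGFP-positive B cells of the germinal centre were sorted from 12-week-old C57BL/6 mice that carried Cg1-Cre and 2 floxed alleles of Rel (relfl/flCg1-Cre), which encodes the NF-kB subunit c-Rel. For the 3 WT arrays, eGFP-negative germinal centre B cells were sorted from Cg1-Cre littermates with the same age and background. All mice were sampled 7 days after immunization with sheep red blood cells. Cg1-Cre, in which Cre follows transcription of the immunoglobulin gamma 1 constant region, is shared by both groups and acts in B cells once they are activated. The groups differ in genotype and in the eGFP gate, and these cannot be told apart here. Separate animals are not stated for the arrays, and p-values therefore measure only how these 5 samples spread, which may be technical variation.

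In red pulp macrophages the ETS-family transcription factor Spi-C (Spic) is required for the cells to form. Haem from digested red cells is opened to biliverdin by haem oxygenase 1 (Hmox1). Biliverdin reductases reduce biliverdin to bilirubin, and Blvrb encodes the B form, which also reduces flavins. The released iron leaves through ferroportin (Slc40a1), the iron exporter of the cell surface. The macrophage colony-stimulating factor receptor (Csf1r) keeps macrophages alive, while Vcam1, Mrc1, Adgre1 (the F4/80 antigen), Treml4 and Cd5l encode surface or secreted proteins used to recognise splenic macrophages.

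RefSeq promoter windows, 250 bases before to 50 after a start site, were at hand for 5 of the 10 genes, in 6 windows of build GRCm38.p6. One window is shown for each of the 5 genes, since Spic, Cd5l, Treml4 and Mrc1 were higher on both REL arrays while Blvrb was bright on every array. Capitals mark matches to the PU.1 and Spi-C core GAGGAA or to the antioxidant and Maf site TGANNNNGC, on either strand.
Spic, chr10:88682974-88683273, minus strand: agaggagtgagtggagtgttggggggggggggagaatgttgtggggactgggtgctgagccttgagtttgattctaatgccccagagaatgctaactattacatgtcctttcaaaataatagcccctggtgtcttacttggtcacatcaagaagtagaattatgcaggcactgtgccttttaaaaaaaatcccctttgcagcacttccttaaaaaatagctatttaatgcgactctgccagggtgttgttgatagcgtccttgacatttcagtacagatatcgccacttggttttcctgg
Cd5l, chr3:87357631-87357930, plus strand: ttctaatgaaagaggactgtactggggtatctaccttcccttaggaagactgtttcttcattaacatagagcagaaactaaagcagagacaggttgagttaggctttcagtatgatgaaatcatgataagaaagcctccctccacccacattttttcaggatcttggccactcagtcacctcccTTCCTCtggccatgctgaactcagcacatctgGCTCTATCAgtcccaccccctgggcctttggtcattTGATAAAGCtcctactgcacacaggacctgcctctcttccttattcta
Treml4, chr17:48264045-48264344, plus strand: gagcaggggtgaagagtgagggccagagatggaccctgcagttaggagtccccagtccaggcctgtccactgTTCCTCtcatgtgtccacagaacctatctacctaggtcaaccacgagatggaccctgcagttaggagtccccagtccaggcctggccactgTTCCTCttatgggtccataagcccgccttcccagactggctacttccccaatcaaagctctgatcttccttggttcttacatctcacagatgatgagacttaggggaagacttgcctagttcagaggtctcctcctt
Mrc1, chr2:14229164-14229463, plus strand: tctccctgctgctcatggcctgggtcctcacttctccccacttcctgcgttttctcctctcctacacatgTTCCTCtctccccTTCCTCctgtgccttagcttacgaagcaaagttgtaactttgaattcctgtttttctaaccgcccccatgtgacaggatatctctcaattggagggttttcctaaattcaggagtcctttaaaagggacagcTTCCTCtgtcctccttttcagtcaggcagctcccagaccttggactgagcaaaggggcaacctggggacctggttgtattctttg
Blvrb, chr7:27447728-27448027, plus strand: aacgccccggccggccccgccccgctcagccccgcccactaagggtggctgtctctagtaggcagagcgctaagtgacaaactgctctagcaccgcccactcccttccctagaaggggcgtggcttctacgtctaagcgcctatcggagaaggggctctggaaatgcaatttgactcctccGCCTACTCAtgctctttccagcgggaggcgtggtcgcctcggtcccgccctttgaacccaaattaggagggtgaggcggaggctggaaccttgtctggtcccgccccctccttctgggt

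The Mrc1 window held 3 matches to the PU.1 and Spi-C core, the nearest starting 35 bases before the start site, and the Cd5l window held 1. The Treml4 window held 2, and the Spic window and both Blvrb windows held none. Among 32851 promoter windows of the same length 28.3% held this core and 41.3% the antioxidant site, which matched in the Cd5l window and in both Blvrb windows. The AP-1 letters TGANTCA (7.81% of all windows), the NF-kB letters GGGANTTCC (1.68%), TATAAA (13.6%) and CACGTG (7.15%) matched in none of the 6 windows, which says only that these letters are not there. No matches overlapped each other. In base composition the Blvrb window shown was the richest of the 5 in G and C, at 63.0%, against 45.0% for Spic, 46.3% for Cd5l, 54.3% for Treml4 and 50.3% for Mrc1. The median over all windows was 52.7%.

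The arrays were scaled alike and differed in their dim range. The mean signal, with 2% trimmed at each end, was 500 on all arrays, while the median signal was 48.1 and 30.1 on REL 1 and REL 2 and 40.7 to 54.6 on the WT arrays. The Pearson correlation of log2 signals, taken over probe sets and so not over independent replicates, was 0.928 between the REL arrays, 0.931 to 0.942 between a REL and a WT array and 0.947 to 0.955 between WT arrays. The 2 REL arrays therefore differed from each other at least as much as from WT. The 5′ probe set of 18S ribosomal RNA had signals of 1671 and 1984 in REL, against 293 to 858 in WT. Its 3′ probe set had 1194 and 1098 in REL, against 718 to 904 in WT. The middle probe set had 11953 and 13417 in REL, against 8696 to 9822 in WT. The 3′ over 5′ ratio of Actb was 1.64 and 1.73 in REL and 1.58, 1.73 and 2.45 in WT. The part of these differences in the results below was not tested. Germinal centre B cell markers had a summed signal of 82381 and 87705 in REL, against 81091 to 95141 in WT, over 13 genes that include Bcl6, S1pr2 and Cd79a. In 1 of the 13, Rgs13, both REL signals (4514 and 3321) lay below all WT signals (4960 to 6058), and in 0 both lay above. The shares over all 18193 genes, by brightest probe set, were 14.6% below and 8.06% above.

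Of the 10 genes, 8 had a brightest probe set with both REL signals above all WT signals. These were Vcam1, Slc40a1, Spic, Hmox1, Cd5l, Treml4, Mrc1 and Csf1r. Blvrb overlapped between the groups, and Adgre1 lay lower on both REL arrays. Counted by probe set, 10 of 16 lay wholly above WT, 1 wholly below and 5 overlapped. Over all 34945 probe sets with 1 gene symbol, controls left out, 8.68% lay wholly above and 14.1% wholly below. These shares were 12.6% above and 6.63% below with median centring, and 11.4% above and 12.2% below with quantile normalization. Of the 16 probe sets, 13 lay wholly above and 0 below with median centring, and 14 above and 1 below with quantile normalization. Nothing is read from these counts, because the genes were selected on this contrast. Differences below are REL minus WT on the scale log2(signal + 16), each with its standard error (SE) from a limma fit over all probe sets with 1 symbol, and the added 16 makes differences of dim probe sets smaller. The median difference was 2.29 over the brightest probe sets of the 10 genes and 1.35 over the 16 probe sets, against −0.08 over all probe sets with 1 symbol. The brightest probe set of a gene was chosen by its mean log2 signal over all arrays, REL included. This choice favours probe sets that are high in REL, and without REL 1 it changed for Vcam1, Csf1r and Spic. The dim level, below which the lowest 40% of probe sets lie by mean log2 signal, was 23.1, and 15 of the 16 probe sets passed it. For 8 of these 15 the WT mean was below the dim level, so they passed through their REL signals.

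**Figure D1:**
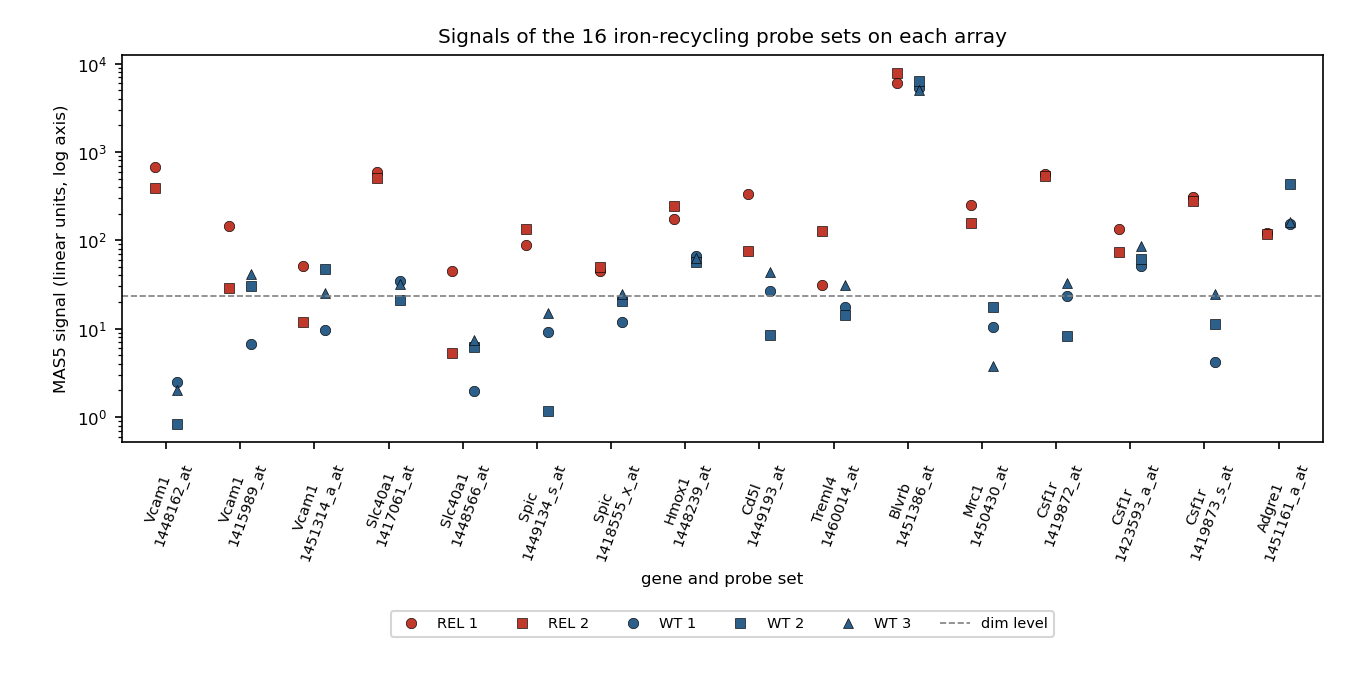
MAS5 signal (log axis) of each of the 16 probe sets on each array, with REL arrays as red points on the left and WT arrays as blue points on the right of each probe set, and the dim level of 23.1 as a dashed line. In 10 probe sets both red points lie above all blue points, in Adgre1 both lie below, and Blvrb is bright on every array.

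The transcription factor gene Spic had signals of 89.3 and 135 in REL and 9.24, 1.18 and 15.1 in WT on probe set 1449134_s_at. All 3 WT signals were below the dim level and both REL signals were above it, with a difference of 2.40 (SE 0.55). The second Spic probe set, 1418555_x_at, had 45.2 and 49.4 in REL, against 11.8, 20.8 and 24.5 in WT, a difference of 0.87 (SE 0.50). Both probe sets of Spic thus kept the groups apart, and REL 2 was the higher REL array on both. The suffixes _s and _x mark probe sets whose probes may match other transcripts too. The Spi-C relatives of B cells were above the dim level on all arrays. Spi1, which encodes PU.1, had 444 and 694 in REL and 341 to 413 in WT, at 0.51 (SE 0.45, limma adjusted p = 0.816 over 12082 genes). Spib had 9086 and 10685 in REL and 7891 to 9541 in WT, at 0.15 (SE 0.15, limma adjusted p = 0.855).

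Ferroportin carries out the export step. Slc40a1 probe set 1417061_at had signals of 585 and 504 in REL and 34.3, 21.0 and 32.2 in WT. The lowest REL signal lay 3.37 log2 units above the highest WT signal, and the difference was 3.64 (SE 0.63). The 2 REL arrays differed by 0.21 on this probe set, less than the range of 0.44 among the WT arrays. The second probe set, 1448566_at, was the only 1 of the 16 that did not pass the dim level. It had 44.7 and 5.29 in REL and 1.97, 6.19 and 7.41 in WT, so that REL 1 alone stood above WT. Its difference of 0.77 (SE 0.43) was 0.02 without REL 1 and 1.53 without REL 2.

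Of the haem-degrading enzymes, Hmox1 separated the groups and Blvrb did not, on the signals as deposited. Hmox1, whose product opens the haem ring, had signals of 172 and 245 in REL and 66.0, 56.5 and 62.6 in WT. Here every array was above the dim level, the WT arrays lay within 0.18 log2 units of each other, and the difference was 1.51 (SE 0.63). Blvrb had 6064 and 7861 in REL and 5268, 6388 and 4962 in WT. REL 1 fell inside the WT range, and the difference was 0.33 (SE 0.19), or 0.51 without REL 1 and 0.14 without REL 2. Blvrb was thus far above the dim level on every array, WT included.

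Vcam1 encodes an adhesion molecule that binds integrins of lymphocytes and marks red pulp macrophages as well as stromal and endothelial cells. Its probe set 1448162_at had signals of 671 and 390 in REL and 2.46, 0.833 and 2.01 in WT. All 3 WT signals were far below the dim level and both REL signals far above it. The difference was 4.89 (SE 0.63), or 7.58 with 1 added to the signals and 3.13 with 64. The other 2 Vcam1 probe sets did not separate the groups on the signals as deposited. Probe set 1415989_at had 144 and 28.8 in REL, against 6.65, 30.1 and 41.0 in WT. REL 2 lay inside the WT range, and the difference of 1.12 (SE 0.74) was 0.20 without REL 1, 2.03 without REL 2 and 0.72 without WT 1. Probe set 1451314_a_at had 51.6 and 11.8 in REL, against 9.63, 47.0 and 25.5 in WT, at 0.09 (SE 0.61). It turned to −0.55 without REL 1 and to −0.24 without WT 1.

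Csf1r, the survival receptor of macrophages, behaved alike on 2 of its 3 probe sets. On 1419872_at it had 565 and 528 in REL and 23.6, 8.18 and 33.1 in WT, a difference of 3.96 (SE 0.67). On 1419873_s_at it had 309 and 279 in REL and 4.21, 11.2 and 24.7 in WT, a difference of 3.46 (SE 0.66). On both, the REL arrays lay within 0.14 log2 units of each other and well above every WT array. The third, 1423593_a_at, had 133 and 74.2 in REL and 51.1, 61.4 and 85.8 in WT, with REL 2 inside the WT range. Its difference of 0.52 (SE 0.67) was 0.16 without REL 1 and 0.88 without REL 2. The files do not say which transcript ends these probe sets read, and the disagreement within Csf1r, Vcam1 and Slc40a1 was not tested further.

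**Figure D2:**
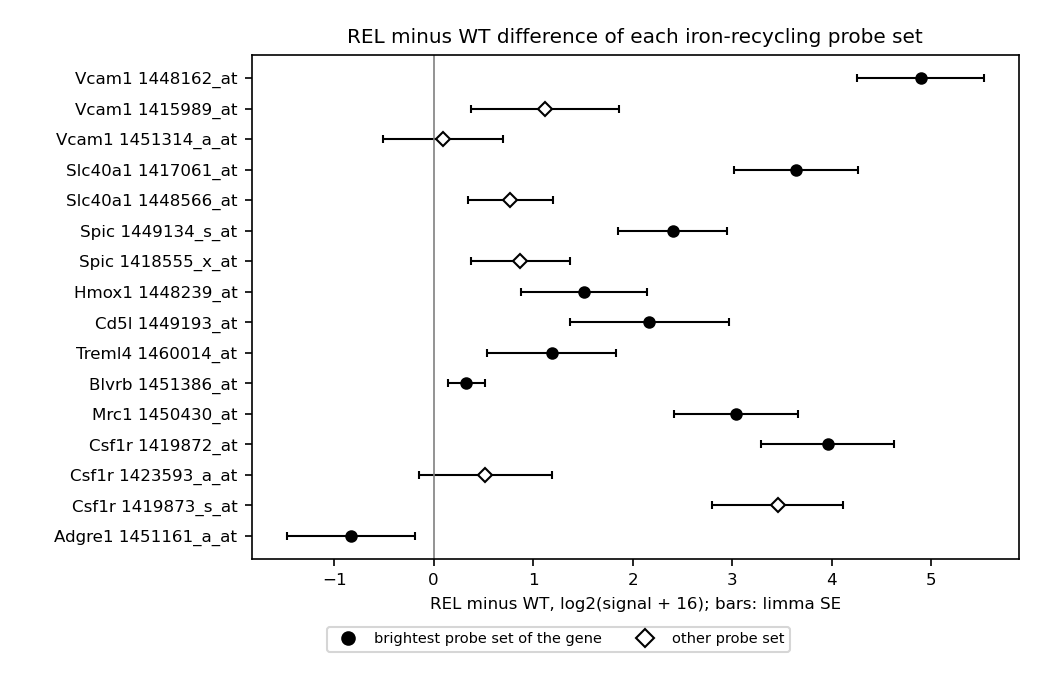
REL minus WT difference of each probe set on the log2(signal + 16) scale, as a point with its limma SE as bars; filled circles are the brightest probe set of a gene and open diamonds the others. The brightest probe sets of Vcam1, Csf1r and Slc40a1 lie at 4.89, 3.96 and 3.64, a second one of Vcam1 and of Csf1r at 0.09 and 0.52, and Adgre1 at −0.83.

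Among the remaining surface and secreted proteins, Mrc1, the mannose receptor, had signals of 249 and 156 in REL and 10.4, 17.6 and 3.78 in WT. All WT signals were below the dim level, and the difference was 3.04 (SE 0.62). Cd5l, a secreted scavenger-receptor protein of macrophages, had 330 and 76.0 in REL and 26.8, 8.45 and 44.1 in WT. Both REL arrays were above WT, but they were 1.91 log2 units apart, and the difference of 2.17 (SE 0.80) was 1.21 without REL 1 and 3.12 without REL 2. Treml4, a receptor of splenic macrophages and of some dendritic cells and monocytes, ran the other way between the REL arrays, with 31.5 and 127 in REL and 17.5, 14.1 and 30.9 in WT. REL 1 stood above WT 3 by only 0.02 log2 units. The Treml4 difference of 1.19 (SE 0.65) was therefore 1.98 without REL 1 and 0.39 without REL 2.

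Adgre1, the defining surface marker F4/80 of red pulp macrophages, went against the rest of the set. Its signals were 120 and 116 in REL and 154, 435 and 161 in WT. Both REL signals were under all WT signals, by a difference of −0.83 (SE 0.64), or −0.37 without WT 2. With the arrays centred on their medians the difference was −0.66 and the groups overlapped. On the signals as deposited, Adgre1 was the only 1 of the 10 genes that was lower on both REL arrays. Blvrb overlapped, and Treml4 on REL 1 stood above WT by only 0.02 log2 units. The set was selected on this contrast, so nothing is read from how many of its genes were higher.

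The 2 REL arrays did not carry the set to the same degree for every gene. REL 1 was above REL 2 in 11 of the 16 probe sets and REL 2 above REL 1 in 5, namely those of Spic, Hmox1, Treml4 and Blvrb. The widest gaps toward REL 1 were in Cd5l (1.91) and Vcam1 1415989_at (1.84), and the widest toward REL 2 was in Treml4 (−1.59 for REL 1 minus REL 2). Within WT, the SD over the 3 arrays had a median of 0.36 over the 16 probe sets, against 0.37 over all probe sets with 1 symbol. It was lowest for Vcam1 1448162_at (0.07), where the signals were small beside the added 16, and highest for Adgre1 (0.80).

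No gene passed the limma test in a list of further haem and iron handling genes. This list held 32 genes beyond the set, of which 24 could be tested, and 0 of 24 were called higher or lower by limma at an adjusted p under 0.05 (adjusted p 0.692 to 1.00) or at an unadjusted p under 0.05. Over all 12082 genes tested limma called 0.00828% higher and 0% lower, and an unadjusted p under 0.05 was reached by 3.24% higher and 4.99% lower. The 1 gene called, Vcam1, is in the iron-recycling set, which was selected on this contrast, so nothing is read from that call. The median of the list was −0.17, against −0.07 over all genes tested, with 8 genes above 0 and 16 below. With median centring of the arrays the median of the list was 0.00 and that of all genes 0.10, and without REL 2 they were −0.04 and −0.03. In 0 of the 24 genes did both REL signals exceed all WT signals, and in 3 both were lower, where the shares over all genes tested were 9.53% and 14.3%.

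Hmox2, the constitutive haem oxygenase, had signals of 2596 and 2688 in REL and 2913 to 4038 in WT, at −0.39 (SE 0.21). Blvra, the main biliverdin reductase, was at −0.47 (SE 0.36), with 746 and 690 in REL and 730 to 1209 in WT. Fth1, the ferritin heavy chain that stores iron, had 15054 and 16791 in REL and 15789 to 19572 in WT, at −0.15 (SE 0.12), or 0.016 with median centring. The iron importer gene Slc11a2 was at −0.74 (SE 0.53), but at 0.23 when its probe sets were averaged, since they disagree in sign. Above 0 were the metal transporter gene Slc39a8 at 1.47 (SE 0.80), the ferritin autophagy receptor gene Ncoa4 at 0.32 (SE 0.28), the iron chaperone gene Pcbp2 at 0.14 (SE 0.15) and the mitochondrial iron importer gene Slc25a37 at 0.35 (SE 0.44). Of these 8 genes, Hmox2 and Slc11a2 had both REL signals under all WT signals, and the other 6 overlapped.

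Receptors for red cells and dying cells gave 0 called genes of 11 tested (limma adjusted p 0.425 to 0.991), with 2 higher and 0 lower at an unadjusted p under 0.05. The shares over all genes tested were 3.24% higher and 4.99% lower. Their median was 0.06, or −0.14 without REL 1. Mertk, the receptor kinase that recognises phosphatidylserine through bridging proteins, had 98.1 and 42.7 in REL and 7.53 to 14.3 in WT, at 1.58 (SE 0.49, adjusted p = 0.425). Sirpa, the receptor for the CD47 signal of red cells, had 1897 and 1286 in REL and 791 to 983 in WT, at 0.83 (SE 0.32, adjusted p = 0.518). In these 2 genes of the 11 both REL signals exceeded all WT signals and in 0 both were lower, against 9.53% and 14.3% over all genes tested. The phosphatidylserine receptor gene Timd4 was at 1.499 (SE 0.74), with 173 and 15.02 in REL and 3.40 to 28.5 in WT, so that REL 1 alone stood apart. Gas6 was at 0.16, the scavenger receptor genes Msr1 and Cd36 at −0.50 and −0.30, and the integrin genes Itgav and Itgb5 at −0.09 and −0.45.

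Regulators of macrophages gave 0 called genes of 13 tested (limma adjusted p 0.38 to 0.992), with 3 higher and 0 lower at an unadjusted p under 0.05. Over all genes tested these shares were 3.24% and 4.99%. In 4 of the 13 both REL signals exceeded all WT signals and in 1 both were lower, against 9.53% and 14.3% over all genes tested. Their median was 0.23, with 11 genes above 0 and 2 below. The median was 0.07 without WT 3 and 0.51 with the lowest 60% of probe sets left out. Maf, which encodes the transcription factor c-Maf, had 420 and 79.3 in REL and 3.96 to 35.7 in WT, at 2.62 (SE 0.73, adjusted p = 0.38), and without REL 1 another Maf probe set became the brightest, at 0.07. Rxra, a nuclear receptor partner, had 89.8 and 132 in REL and 13.1 to 34.3 in WT, at 1.65 (SE 0.53, adjusted p = 0.436). Csf2rb, the shared beta chain of cytokine receptors, had 859 and 1209 in REL and 209 to 569 in WT, at 1.34 (SE 0.50, adjusted p = 0.503). Csf1, which encodes the ligand of Csf1r, was at −0.47 (SE 0.51), and the sterol sensor gene Nr1h3 at −0.48 (SE 0.54).

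**Figure D3:**
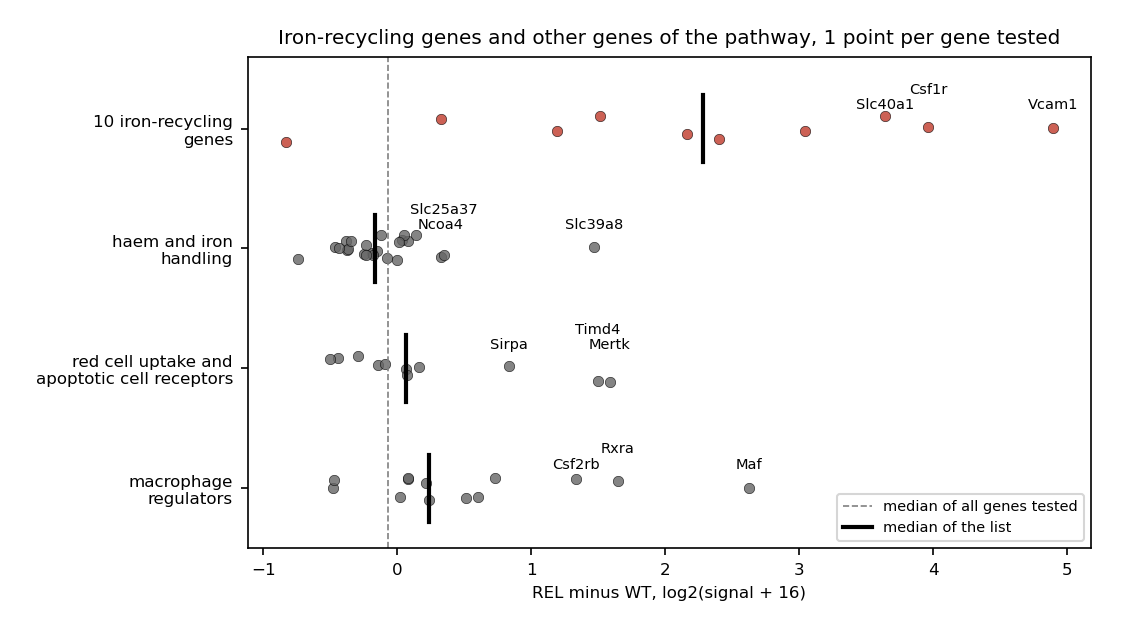
REL minus WT difference on the log2(signal + 16) scale for each gene tested, with 1 point per gene, in the iron-recycling set (red) and 3 lists of related genes (grey); thick lines mark medians and the dashed line the median of all genes tested, −0.07. The set has a median of 2.29 and the 3 lists medians of −0.17, 0.06 and 0.23. The set was selected on this contrast, and the brightest probe set of each gene was chosen with the REL signals included.

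Markers of other cells that a splenic sort could hold were summed by list, without the 10 genes. The 24 other macrophage markers summed to 7739 and 6093 in REL and to 2689, 3112 and 1889 in WT. In 8 of the 24 both REL signals exceeded all WT signals and in 1 both were lower. The shares over all 18193 genes with a brightest probe set were 8.06% and 14.6%. The 8 include Marco and Hpgd, each with a REL signal near or below the dim level and only narrowly above WT. Marco had 27.3 and 23.7 in REL and 3.7 to 23.3 in WT. Hpgd had 15.6 and 46.1 in REL and 8.7 to 13.3 in WT. Lyz1 and Lyz2, also among the 8, ran in parallel over the arrays. The brightest markers on REL 1 were Lyz1 (2622 and 749 in REL, 20.8 to 562 in WT) and Lyz2 (1318 and 442 in REL, 10.8 to 321 in WT). The complement gene C1qb had 531 and 786 in REL and 3.91 to 27.0 in WT, and C1qc had 106 and 52.7 in REL and 0.669 to 1.61 in WT. C1qa overlapped, with 26.6 and 4.35 in REL and 3.01 to 6.66 in WT. The marker that lay lower was Ms4a7, with 33.0 and 49.3 in REL and 66.3 to 180 in WT. Mpeg1, which encodes a pore-forming protein of phagocytes, had 1211 and 2293 in REL and 648 to 1002 in WT. Cd68 (242 and 833 in REL, 297 to 460 in WT), Itgam (12.6 and 25.3 in REL, 14.2 to 44.6 in WT) and Cd163 (133 and 2.02 in REL, 1.64 to 45.4 in WT) overlapped. Neutrophil markers ran the other way in part, with sums of 428 and 145 in REL and 251 to 1409 in WT over 11 genes. Without S100a9, their brightest gene, the sums were 175 and 141 in REL and 237 to 621 in WT. Stromal and endothelial markers summed to 3143 and 2088 in REL and to 3075 to 4101 in WT over 18 genes, but most of this sum was Cr2, which B cells also express. Without Cr2 the sums were 1247 and 677 in REL and 509 to 885 in WT, and over the 18 genes 3 had both REL signals above all WT signals and 1 below. Among them the endothelial adhesion gene Pecam1 had 321 and 257 in REL and 80.4 to 141 in WT, and the pericyte receptor gene Pdgfrb had 128 and 69.1 in REL and 4.63 to 55.8 in WT. The median difference over the 18 genes was −0.01. Cdh5 (32.7 and 20.0 in REL, 17.0 to 33.1 in WT), Stab2 (35.8 and 27.7 in REL, 33.9 to 39.0 in WT) and Acta2 (80.8 and 48.7 in REL, 61.2 to 213 in WT) overlapped. T cell markers summed to 6617 and 5412 in REL and to 4988 to 5525 in WT over 11 genes, again mostly from 1 gene, Cd2, which mouse B cells also express. The other 10 summed to 892 and 324 in REL and to 292 to 591 in WT. Monocyte sums were 1401 and 1939 in REL and 1376 to 2245 in WT (219 and 225 in REL and 204 to 297 in WT without Plac8). Erythroid sums were 357 and 242 in REL and 278 to 646 in WT (275 and 207 in REL and 114 to 261 in WT without Hbb-b2). Dendritic cell sums were 1429 and 2169 in REL and 1111 to 1290 in WT over 8 genes. Without Flt3 they overlapped, at 653 and 883 in REL and 641 to 743 in WT. No marker was at 0 on every array, since MAS5 signals stay above 0. In these bulk samples more cells of a type and more RNA per cell cannot be told apart, and the part of the macrophage, stromal and endothelial markers in the differences of the set was not tested.

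**Figure D4:**
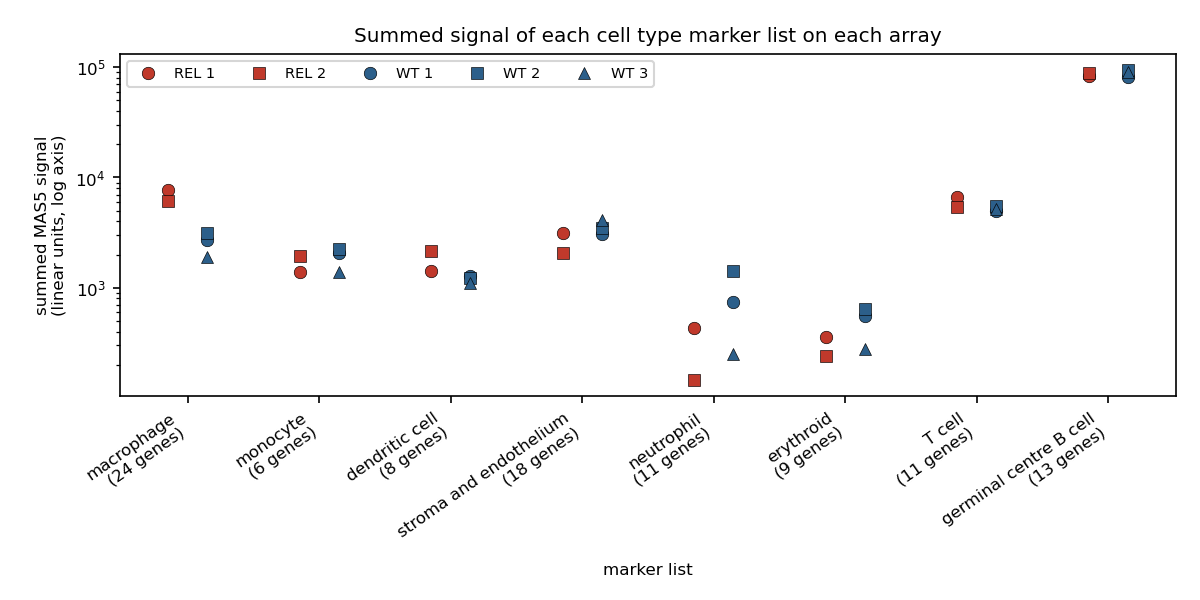
Summed MAS5 signal (log axis) of each marker list on each array, REL in red on the left and WT in blue on the right of each list. The macrophage sum is 7739 and 6093 in REL and 1889 to 3112 in WT, while the germinal centre B cell sum overlaps between the groups; Cr2 carries most of the stromal sum and Cd2 most of the T cell sum.

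The genes whose profile over the 5 arrays lay nearest to the median profile of the set were found by the root mean square (RMS) difference of log2(signal + 16) deviations from each gene's own mean. Over 12072 other genes the median RMS was 1.30. Within the set, Spic lay nearest to the median profile (0.27), then Hmox1 (0.53) and Mrc1 (0.55), and Adgre1 (1.74), Vcam1 (1.24) and Blvrb (1.09) farthest. The nearest other gene was Rrad, a small GTPase gene, at an RMS of 0.28, with 100 and 100 in REL and 11.3 to 12.2 in WT. Pilrb1, an activating immune receptor gene, followed at 0.31, with 172 and 208 in REL and 12.9 to 51.4 in WT. Nmrk1, a kinase gene of NAD synthesis, was at 0.32, with 315 and 354 in REL and 38.1 to 56.0 in WT. Clec1b, which encodes the C-type lectin receptor CLEC-2, was at 0.35, with 116 and 96.8 in REL and 4.42 to 27.8 in WT. Zfp708, Serpini1, 4831440E17Rik, Fbxl20, Chst1 and Gm11346 completed the nearest 10, at 0.32 to 0.41. This is a likeness of level over 5 arrays, with no test.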

How the data were processed

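For each of 5 arrays the authors deposited linear signal intensities made with MAS5, which the submitters' processing notes name without a version. Per the labels' protocols, RNA went through NuGEN Ovation amplification and was then labelled with biotin. MAS5 settings and detection calls are not used here, and the number of arrays limits the precision.

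Samples were grouped by title, and each column was matched by its sample accession. Gene names came from the annotation of the platform, where 34958 of 45101 had 1 symbol, 932 several and 9211 none listed. All 10 genes matched a RefSeq entry through the Entrez identifier. The 64 control probe sets were left out. Signals were taken as log2(signal + 16) with no normalization between arrays. For tests, the lowest 40% of probe sets by mean over all arrays were left out and the brightest probe set per gene was kept (12082 genes). Genes were fitted across the whole table with limma 3.58.1 in R 4.3.3 (group as the single term, mean-variance trend), 2-sided with Benjamini-Hochberg adjustment at 0.05. The fit was tested on simulated data.

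The genes and lists were chosen with earlier results of these data known. Named were all probe sets of the 10 genes, Spi1 and Spib, the nearest 10 profiles, defining markers of cell types and, of the up to 6 tested genes per list and direction with the smallest p, the first 4. The limit of 4 and the example markers were chosen after their values were seen. The promoter motifs were also chosen after the values were seen. The alternatives were leaving out each array, a block for the replicate number, fits with no trend, averaging a gene's probe sets, median centring, quantile normalization, a 60% filter, fits with every probe set kept, and pseudocounts of 1 and 64. Summaries were made in Python 3.11.15 with numpy 2.4.6 and pandas 2.3.3, and figures with matplotlib 3.10.9.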

Additional observations from a re-analysis of the deposited data

How the results depend on the processing

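Over all genes, limma called 1, a member of the set, which was selected on this contrast, so the counts below are no test of the set. It called 0 with a pseudocount of 1 or 64, with no filter, with the lowest 60% left out, with probe sets averaged per gene and with no mean-variance trend, where 979, 940, 1230, 777, 973 and 928 genes had an unadjusted p under 0.05. It called 2 with quantile normalization and 3 with median centring. Leaving out 1 array gave 0 to 8, namely 8 without REL 1, 1 without REL 2 and 0 without each WT array. Without REL 1 or REL 2 another Vcam1 probe set was the brightest, at 0.20 and 2.03, while 1448162_at itself kept 4.51 and 5.27, and 4.86 to 4.92 without each WT array. Csf1r likewise switched to 1423593_a_at, at 0.16 without REL 1 and 0.88 without REL 2, and Spic to 1418555_x_at, at 0.92 without REL 1. A pseudocount of 1 also switched the brightest probe set of Vcam1 (1.61), Csf1r (0.61) and Spic (1.33). With the lowest 60% left out Vcam1 fell under the filter. The fit with the replicate number as a block called 18. Deviations of same-numbered arrays had correlations of −0.04 and −0.02 across genes. With 2 REL arrays the REL deviations mirror each other, so these values cannot show whether the arrays were paired. The labels give no pairing. The 3 lists of related genes had 0 calls under every one of these alternatives. Of 144 values of the 16 probe sets under alternatives, 117 moved by less than 1 SD, and of the other 27, 17 came with another pseudocount and 10 with an array left out. The SD was the pooled within-group SD of each probe set on these arrays, so a noisy probe set could move far and stay within it. Vcam1 1415989_at moved from 1.12 to 0.20 without REL 1, within its SD of 0.94. The sign turned in 1 probe set, Vcam1 1451314_a_at, whose values without 1 array ran from −0.55 to 0.74. The 10 probe sets wholly above WT became 14 with quantile normalization and 13 with median centring, where 11.4% and 12.6% of all probe sets with 1 symbol lay wholly above. With probe sets averaged the sign turned for Ncoa4 (−0.30), Pcbp2 (−0.15), Slc11a2 (0.23), Itgav (0.24), Cd36 (0.17) and Csf1 (0.0052), and with median centring for Fth1 (0.016) and Itgav (0.077). With 1 array left out, values ran from −0.041 to 0.31 for Pcbp2, −0.053 to 0.74 for Slc25a37, −0.98 to 0.86 for Slc11a2 (positive without WT 1 and without WT 3, where another probe set became the brightest), −0.28 to 0.61 for Gas6, −1.11 to 0.11 for Msr1, −1.11 to 0.22 for Itgb5 and −0.60 to 0.012 for Cd36. Mertk had no value without REL 1, without REL 2 or with the 60% filter, where it fell under the filter, and some other dim genes lacked 1 to 3 values for the same reason. Signals near or below the dim level limit the precision of most WT values here. Leaving out the brightest gene of each marker list, an alternative chosen after seeing the data, turned the REL over WT ratio of summed signals to 1.42 for stroma and endothelium (0.736 with Cr2) and to 1.28 for erythroid markers (0.61 with Hbb-b2). The cause of the other changes was not tested.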
